A study of Mus musculus with 24 samples.

Results

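Transcripts that mark fibroblasts and other stromal cells were followed in macrophages sorted from mouse colon tumors. The set holds 8 genes of the 55487 in the count table, chosen by symbol and matched by mouse Ensembl ID: Dcn, Lum, Col1a1, Col1a2, Col3a1, Sparc, Pdgfrb and Col6a1. The cells came from tumors that the colon carcinoma line MC38 formed at its orthotopic site in C57BL/6J mice. Apc, which keeps Wnt signalling in check and is often lost in colon cancer, was intact in the carcinoma cells of 2 tumors (APC-WT) and knocked out in those of 2 others (APC-KO). All tumors were dissociated with Liberase, freed of red cells and sorted on CD45, CD11b and F4/80, which macrophages carry. Each tumor gave 6 libraries, 24 in all, which the labels call replicates of 1 sample. Their spread is thus not that between tumors, and for the genotype each tumor counted once. Age and sex of the mice, pooling of animals and the number of MC38 clones are not given in the labels. Apc was altered in the carcinoma cells and not in the sorted cells of the mice, so its count checks no label here.

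Fibroblasts build the connective matrix of a tumor. They secrete collagen chains as precursors that assemble into triple helices, are trimmed outside the cell and align into fibrils. Small leucine-rich proteoglycans such as decorin and lumican coat those fibrils and set their spacing, and matricellular proteins such as SPARC bind collagen and tune how cells attach. PDGF receptor beta receives growth signals on fibroblasts and on the pericytes that wrap small vessels. Macrophages in a tumor lie among these cells, take up matrix, and transcribe some matrix genes themselves, so a sorted macrophage library may hold a low level of any of them.

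The sequence before the RefSeq start is shown for 3 collagen genes. These genes were lower in the second APC-WT tumor than in the first and higher in the second APC-KO tumor than in the first. Dcn, Col1a1 and Sparc had the same pattern but no stretch to show. The RefSeq promoter table used here (GRCm38.p6) was matched for 4 of the 8 genes. The lines give, 5′ to 3′ on the gene's strand, the longest stretch of the 250 bases before the RefSeq start that overlaps no exon of GENCODE M21; Sparc had none of at least 100 bases. Capitals mark matches to the TATA box (TATAAA), the box bound by NF-Y (CCAAT), the GC box bound by Sp1 (GGGCGG) and the element bound by SMAD proteins (CAGAC). Both strands were searched, and no matches overlapped. The Col1a2 stretch lies inside the gene as GENCODE M21 places it (chromosome 6, 4504814 to 4541544, plus strand).
Col3a1, chr1:45311288-45311537, plus strand: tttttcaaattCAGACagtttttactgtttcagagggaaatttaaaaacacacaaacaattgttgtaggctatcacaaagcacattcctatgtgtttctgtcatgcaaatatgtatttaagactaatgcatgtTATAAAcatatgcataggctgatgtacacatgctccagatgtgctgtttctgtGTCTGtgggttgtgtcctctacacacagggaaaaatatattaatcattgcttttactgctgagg
Col1a2, chr6:4505370-4505492, plus strand: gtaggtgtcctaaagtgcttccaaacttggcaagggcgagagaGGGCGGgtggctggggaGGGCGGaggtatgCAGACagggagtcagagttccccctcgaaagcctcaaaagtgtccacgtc
Col6a1, chr10:76726169-76726294, minus strand: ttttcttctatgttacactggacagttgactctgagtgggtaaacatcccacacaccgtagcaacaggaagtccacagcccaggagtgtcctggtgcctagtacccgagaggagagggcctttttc

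The Col3a1 stretch of 250 bases held a TATA box at -117 to -112 and a SMAD element at each of -239 to -235 and -64 to -60, the latter on the opposite strand. Of 32851 RefSeq promoters, 12.4% held TATAAA and 42.2% CAGAC in the same 250 bases. The Col1a2 stretch held GGGCGG at -205 to -200 and at -188 to -183 and CAGAC at -175 to -171, which 13.3% and 24.2% of all promoters held in the same positions. The Col6a1 stretch held no match to these 4 sets of letters. The Col3a1 stretch was 35.2% G and C against a median of 52.4% over all promoters, and the other stretches were at 59.3% for Col1a2 and 51.6% for Col6a1. A match describes letters in a window and is no measured binding site.

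Depth and composition differed between the tumors. Total counts per library were 74972634 to 93568353 (APC-WT tumor 1), 28018638 to 46837543 (APC-WT tumor 2), 8895722 to 19328572 (APC-KO tumor 1) and 13464061 to 17196820 (APC-KO tumor 2). In the same order, expressed genes took 81.7%, 73.6%, 33.2% and 31.8% of all counts, and loci resembling a satellite repeat took 1.32%, 7.08%, 37.9% and 38.5%. Counts per kilobase of exon on 1974 olfactory and vomeronasal receptor genes, taken to be mostly silent in these cells, served as the expected background. In APC-WT tumor 1, 56 of them (2.84%) stood at 3 times that background or more. Extended over all exons this background came to 0.751%, 5.05%, 17.6% and 17.9% of counts. Levels below are scaled CPM, a gene's count relative to the total of 3941 expressed genes, and each is read against its expected background. The sort markers were present: the genes of CD45, CD11b and F4/80 (Ptprc, Itgam, Adgre1) were among 12 macrophage genes that all lay at 3 times background or more in every tumor. Those 3 genes were nevertheless lower in APC-KO, Itgam by 2.57, Adgre1 by 2.09 and Ptprc by 1.52 on the log2 scale of expressed genes.

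Stromal transcripts were a small part of these macrophage libraries, and 5 of the 8 were highest in APC-WT tumor 1. Summed over the 8 genes, the level was 1851 ± 60.8 scaled CPM (SD, n = 6 libraries) in APC-WT tumor 1, 1066 ± 55.8 in APC-WT tumor 2, 410.2 ± 32.6 in APC-KO tumor 1 and 680.0 ± 16.2 in APC-KO tumor 2. The expected background for the same 8 genes was 3.898, 28.03, 198.9 and 200.2 scaled CPM. Above that background 1847 ± 60.7, 1038 ± 56.0, 211.4 ± 24.8 and 479.8 ± 15.6 remained, so the order of the tumors was unchanged. The 8 genes held 0.138% of all counts in APC-WT tumor 1 and 0.0142% in APC-KO tumor 1. In bulk libraries of sorted cells, fewer stromal cells and less stromal RNA per cell cannot be told apart. At 3 times background or more stood 8 of 8 genes in each APC-WT tumor, 1 (Sparc) in APC-KO tumor 1 and 5 in APC-KO tumor 2. With the background taken from near-silent coding genes of the same GC content, the 5 fell to 2, Dcn and Sparc. Receptor genes reached 3 times their background at rates of 2.84% (APC-WT tumor 1), 0.355% (APC-WT tumor 2), 1.52% (APC-KO tumor 1) and 1.98% (APC-KO tumor 2). Among 22 other fibroblast markers the number was 16, 7, 5 and 5 in the same order, while all 12 macrophage genes did so in every tumor. The share over all genes was not counted, so whether the drop is particular to the 8 was not tested.

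**Figure D1:**
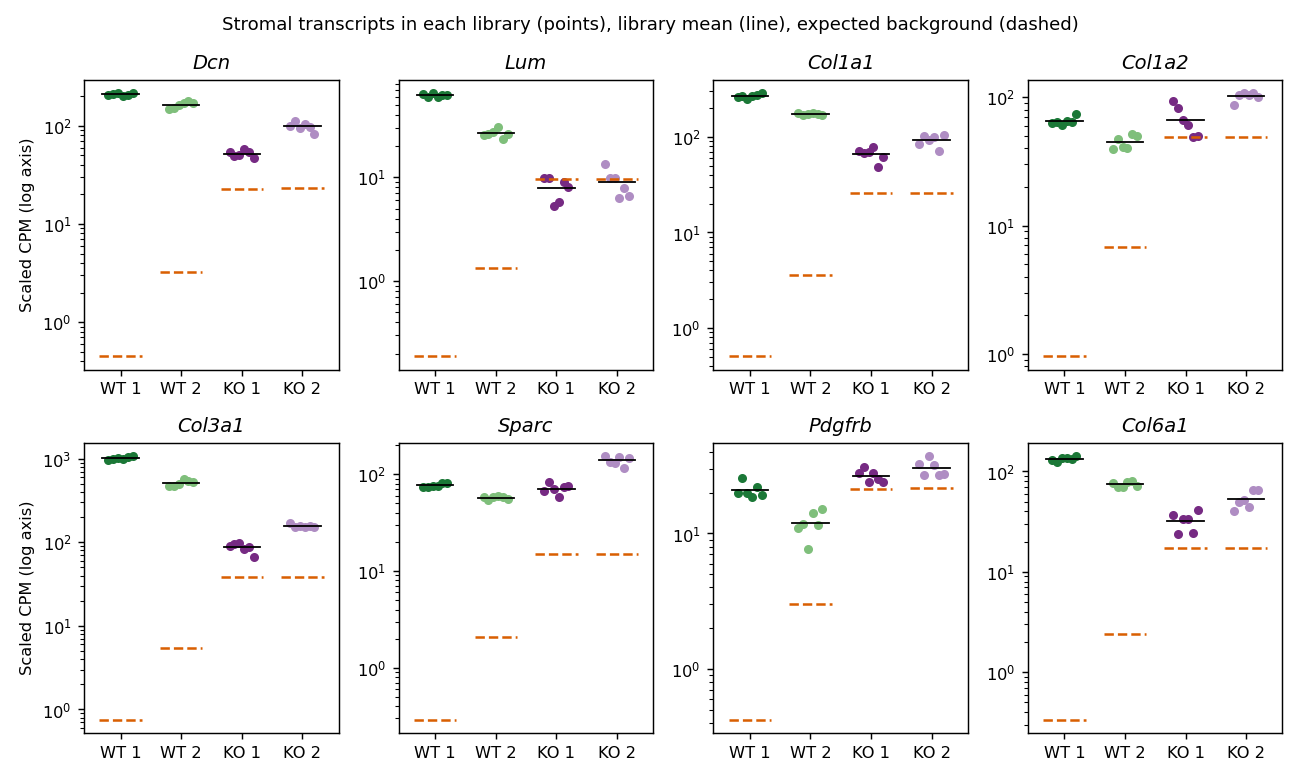
Scaled CPM (log axis) of the 8 stromal transcripts in each of the 24 libraries, by tumor (WT, APC-WT; KO, APC-KO); points are libraries, the black line is their mean and the dashed line the expected background. The points lie above the dashed line in APC-WT tumors, least so for Pdgfrb and Col1a2 in APC-WT tumor 2 (3.86 and 6.59 times), and close to it in APC-KO tumors for Lum, Col1a2 and Pdgfrb.

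Col3a1, which encodes the chain of type III collagen and is abundant in young connective tissue, was the highest of the 8 in APC-WT tumors. Its libraries ran from 970.6 over a median of 1004 to 1070.0 scaled CPM in APC-WT tumor 1 and from 471.9 over 515.6 to 568.4 in APC-WT tumor 2. In APC-KO tumor 1 they ran from 66.3 over 89.3 to 97.8, and in APC-KO tumor 2 from 150.6 over 153.0 to 170.9. No library of one tumor reached the range of another, and every APC-KO library lay below every APC-WT library. The mean was 1342 and 94.3 times background in APC-WT tumors 1 and 2 but 2.24 and 4.01 times in APC-KO tumors 1 and 2. Against near-silent genes of the same GC content, Col3a1 stood at 1.44 and 2.585 times background in APC-KO tumors 1 and 2. Relative to APC-WT, the log2 change in APC-KO was -2.64 ± 0.33 (SE, 2 tumors against 2, edgeR adjusted p = 0.00067). The ratio of means of an APC-KO tumor to an APC-WT one lay between 0.0855 and 0.303 over the 4 pairs. The gene lies on chromosome 1 (45311538 to 45349706, plus strand, GRCm38), with the microRNA gene Gm47302 inside it.

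Col1a1, the main chain of type I collagen in bone, skin and scar, followed a like order. The libraries ran from 250.4 over 269.9 to 289.5 scaled CPM in APC-WT tumor 1 and from 168.6 over 174.7 to 177.0 in APC-WT tumor 2. They ran from 49.0 over 68.9 to 79.3 in APC-KO tumor 1 and from 71.9 over 96.1 to 104.6 in APC-KO tumor 2. The genotypes did not overlap, while the ranges of both APC-KO tumors did. The log2 change in APC-KO was -1.47 ± 0.24 (edgeR adjusted p = 0.0021). Its level was 532 and 47.9 times background in APC-WT tumors 1 and 2, and 2.53 and 3.61 times in APC-KO tumors 1 and 2. Against near-silent genes of the same GC content it was 1.54 and 2.19 times background in APC-KO tumors 1 and 2.

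Col1a2, the partner chain that joins Col1a1 in the type I helix, did not show that difference on the scaled counts. It ran from 61.2 over 64.2 to 73.7 scaled CPM in APC-WT tumor 1 and from 39.7 over 44.3 to 52.2 in APC-WT tumor 2. In APC-KO tumor 1 it spread from 49.0 over 63.7 to 93.2 and in APC-KO tumor 2 it ran from 87.0 over 104.7 to 108.4. APC-KO libraries overlapped those of both APC-WT tumors, and APC-KO tumor 1 had the widest spread. The log2 change was 0.61 ± 0.28 and did not pass (edgeR adjusted p = 0.072). The expected background was 0.955 (tumor 1) and 6.87 scaled CPM (tumor 2) for APC-WT but 48.7 and 49.0 for APC-KO, so 64.4 ± 4.35, 38.3 ± 5.45, 18.2 ± 16.0 and 53.2 ± 8.25 remained above it in that order. Against near-silent genes of the same GC content Col1a2 stood at 0.847 and 1.35 times background in APC-KO tumors 1 and 2. Its exons span 12426 bases over all annotated transcripts and 5348 in the longest, so its expected background depends on the model more than that of any other gene of the set. By the longest transcript Col1a2 stood at 3.00 and 4.75 times background in APC-KO tumors 1 and 2. A same-strand transcript of unsettled status, Gm43921, lies within it, and how the authors' counting split reads between the pair is not given in the sources used here.

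Col6a1, a chain of the beaded type VI collagen that surrounds cells, resembled Col1a1. Its libraries ran from 125.6 over 134.8 to 141.8 scaled CPM in APC-WT tumor 1 and from 70.0 over 74.2 to 80.4 in APC-WT tumor 2. They ran from 24.03 over 33.8 to 41.1 in APC-KO tumor 1 and from 40.8 over 51.0 to 66.0 in APC-KO tumor 2. The genotypes did not overlap, but the highest APC-KO library came close to the lowest of APC-WT tumor 2. The log2 change in APC-KO was -1.27 ± 0.32 (edgeR adjusted p = 0.012). In APC-KO tumors 1 and 2 the gene stood at 1.87 and 3.07 times background, and at 1.14 and 1.87 times against genes of its GC content.

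Dcn encodes decorin, the proteoglycan that binds collagen fibrils and sequesters TGF-beta. It ran from 202.1 over 206.8 to 215.8 scaled CPM in APC-WT tumor 1 and from 147.7 over 166.5 to 176.5 in APC-WT tumor 2. It ran from 46.9 over 51.9 to 57.9 in APC-KO tumor 1 and from 82.97 over 98.1 to 111.7 in APC-KO tumor 2. All 4 tumors were apart from each other, in the order of Col3a1. The log2 change in APC-KO was -1.29 ± 0.27 (edgeR adjusted p = 0.0058). Dcn has the lowest GC content of the set (37.4%), and its excess over background in APC-KO tumors 1 and 2 was 2.30 and 4.26 times by receptor genes and 2.36 and 4.45 times by genes of like GC content.

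Lum encodes lumican, a sister proteoglycan of decorin that lies near it on chromosome 10 (Lum 97565128 to 97572703 and Dcn 97479609 to 97518143, both plus strand, GRCm38). The libraries ran from 59.3 over 61.8 to 65.2 scaled CPM in APC-WT tumor 1 and from 23.4 over 25.9 to 30.8 in APC-WT tumor 2. They ran from 5.27 over 8.55 to 9.83 in APC-KO tumor 1 and from 6.39 over 8.85 to 13.3 in APC-KO tumor 2. The APC-KO tumors overlapped each other and lay below both APC-WT tumors. The means of the APC-KO tumors were 0.853 and 0.915 times the expected background, and 52.9% and 48.2% of receptor genes had as many counts per kilobase or more. Lum was therefore not detectable above background in APC-KO tumors at this depth. The log2 change of -2.37 ± 0.50 (edgeR adjusted p = 0.0058) sets the APC-WT level against that background. Dcn to Lum, per kilobase of exon, stood at 1.41 ± 0.0443 in APC-WT tumor 1 and 2.60 ± 0.313 in APC-WT tumor 2.

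**Figure D2:**
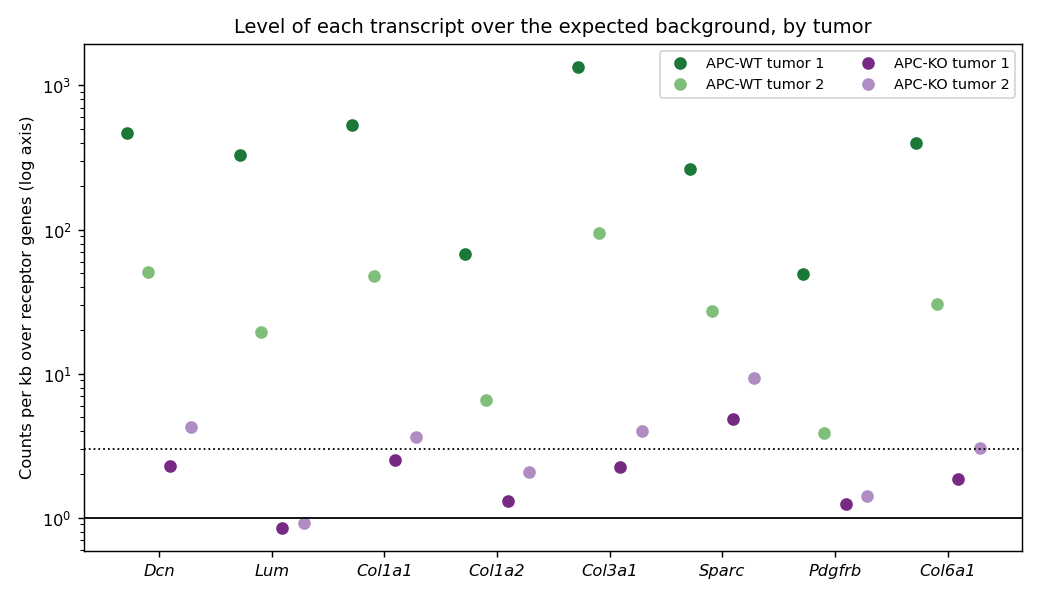
Counts per kilobase of exon of each transcript over those of receptor genes (log axis), 1 point per tumor; the solid line marks the background itself and the dotted line 3 times background. Col3a1 stands at 1342 times in APC-WT tumor 1 and 2.24 times in APC-KO tumor 1, and Lum lies below the solid line in both APC-KO tumors.

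Sparc encodes the collagen-binding protein osteonectin, which macrophages and endothelial cells also make. It was the one gene of the set at 3 times the receptor gene background or more in all 4 tumors, at 263, 27.3, 4.84 and 9.32 times (APC-WT tumors 1 and 2, then APC-KO tumors 1 and 2). Against near-silent genes of the same GC content Sparc stood at 3.11 and 6.01 times background in APC-KO tumors 1 and 2. The libraries ran from 72.9 over 76.1 to 81.6 scaled CPM in APC-WT tumor 1 and from 53.8 over 57.5 to 59.8 in APC-WT tumor 2. They ran from 58.3 over 72.0 to 82.2 in APC-KO tumor 1 and from 114.5 over 141.5 to 153.1 in APC-KO tumor 2. APC-KO tumor 2 was above all other libraries, and APC-KO tumor 1 overlapped both APC-WT tumors. The log2 change in APC-KO was 0.67 ± 0.30 and did not pass (edgeR adjusted p = 0.068). Above background the means were 76.4 ± 3.70, 55.0 ± 2.06, 56.1 ± 8.03 and 123.7 ± 14.6 scaled CPM in the order of the tumors given above.

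Pdgfrb, the receptor for PDGF-B and PDGF-D, was the lowest of the 8 per kilobase in APC-WT tumors. It ran from 18.5 over 19.9 to 25.6 scaled CPM in APC-WT tumor 1 and from 7.75 over 11.7 to 15.2 in APC-WT tumor 2. In APC-KO tumor 1 it ran from 24.03 over 26.4 to 30.9 and in APC-KO tumor 2 from 27.0 over 29.8 to 37.2. APC-KO libraries overlapped the upper end of APC-WT tumor 1 and lay above APC-WT tumor 2. The expected background there was 21.5 and 21.6 scaled CPM, and 29.4% and 21.2% of receptor genes had as many counts per kilobase in APC-KO tumors 1 and 2. The log2 change of 0.83 ± 0.47 did not pass (edgeR adjusted p = 0.13). Against genes of like GC content Pdgfrb stood at 0.797 and 0.911 times background in APC-KO tumors, so it was not detectable above background there, and at 27.4 and 3.66 times in APC-WT tumors.

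By level per kilobase of exon the order of the genes changed between the genotypes. In APC-WT tumor 1 it was Col3a1 at 103.4 scaled CPM per kilobase, Col1a1 at 41.1, Dcn at 35.7, Col6a1 at 30.5, Lum at 25.3, Sparc at 20.3, Col1a2 at 5.26 and Pdgfrb at 3.81. Col1a1 and Dcn changed places in APC-WT tumor 2, at 26.4 and 27.9. Sparc led in APC-KO tumors, at 18.7 and 36.6, and Col3a1 ranked behind Sparc, Col1a1 and Dcn in APC-KO tumor 1 at 8.84 and behind Sparc and Dcn in APC-KO tumor 2 at 15.9. The rank of Col3a1 depends on the length used. By the longest transcript it stood at 3.88 times background in APC-KO tumor 1, above Dcn at 2.80 and Col1a1 at 2.75. In APC-KO tumor 2 it then stood at 6.93 times, above Dcn at 5.19 and Col1a1 at 3.92. Col3a1 was 54.9% and 49.0% of the summed level above background in APC-WT tumors and 22.7% and 24.4% in APC-KO tumors. The ratio of Col3a1 to Col1a1 per kilobase, above background, was 2.52, 2.00, 0.789 and 1.17 in the 4 tumors. These ratios were not tested, and they rest on the exon length over all annotated transcripts. That length is 9816 bases for Col3a1 and 6563 for Col1a1, against 5564 and 5930 in the longest transcript. The value of 0.789 in APC-KO tumor 1 therefore depends on the length used and does not settle which of the 2 was higher.

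Across the genotypes 5 of the 8 genes fell in APC-KO and 0 rose: Col3a1, Lum, Col1a1, Dcn and Col6a1. All 12 APC-KO libraries lay below all 12 APC-WT libraries for these 5. How many of all genes had libraries apart in this way was not counted. Of 54201 genes tested by edgeR, 2.48% were lower and 55.4% higher in APC-KO, and the median log2 change was 3.56 over all genes, 0.0044 over expressed genes and -1.28 over the 8. Of 12 macrophage genes 6 fell with them, among them Itgam by 2.57, Csf1r by 2.29, Adgre1 by 2.09 and Ptprc by 1.52, changes as large as those of the stromal genes, and 2 rose (C1qa and C1qb); the part of this in the stromal change was not tested. The stromal genes that did not pass, Col1a2, Sparc and Pdgfrb, had positive changes from 0.61 to 0.83. Background moved with the genotype for every gene, and its part in the changes of Col1a2 and Pdgfrb was not tested beyond the values above. Scaling on all genes instead of expressed genes moved the median expressed gene to -4.01 and called 0 of the 8, with 0 genes called of all tested and 18647 at an unadjusted p under 0.05; all 8 changes were then negative, those of Col3a1, Lum, Col1a1, Col6a1 and Dcn below that median and those of Col1a2, Sparc and Pdgfrb above it. Limma-voom also called 0 of the 8, at log2 changes of -3.07 for Col3a1, -2.61 for Lum, -1.69 for Col1a1, -1.51 for Col6a1 and -1.44 for Dcn, while it called 43463 genes higher and 490 lower of 54201. Without APC-WT tumor 1, Col1a2, Sparc and Pdgfrb passed as higher by edgeR, at 0.90, 0.90 and 1.31, in a fit that called 50125 of 54201 genes higher. Pdgfrb also passed without APC-WT tumor 2, at 0.47, where 50481 genes were higher, and Sparc without APC-KO tumor 1, at 1.07, where 6069 were. With a length offset among expressed genes, in which 24.5% fell and 24.9% rose, 2 of 5 tested fell, Col1a1 by 0.96 and Col3a1 by 2.12 on the log2 scale (edgeR adjusted p = 0.037 and 0.018). Genes entered this fit by their mean over all tumors, and 0 of the 8 reached 10 times background in either APC-KO tumor. The 5 tested thus entered through their APC-WT levels, which favours a fall, so this fit lends the falls no separate support. Lum, Col1a2 and Pdgfrb did not enter it.

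**Figure D3:**
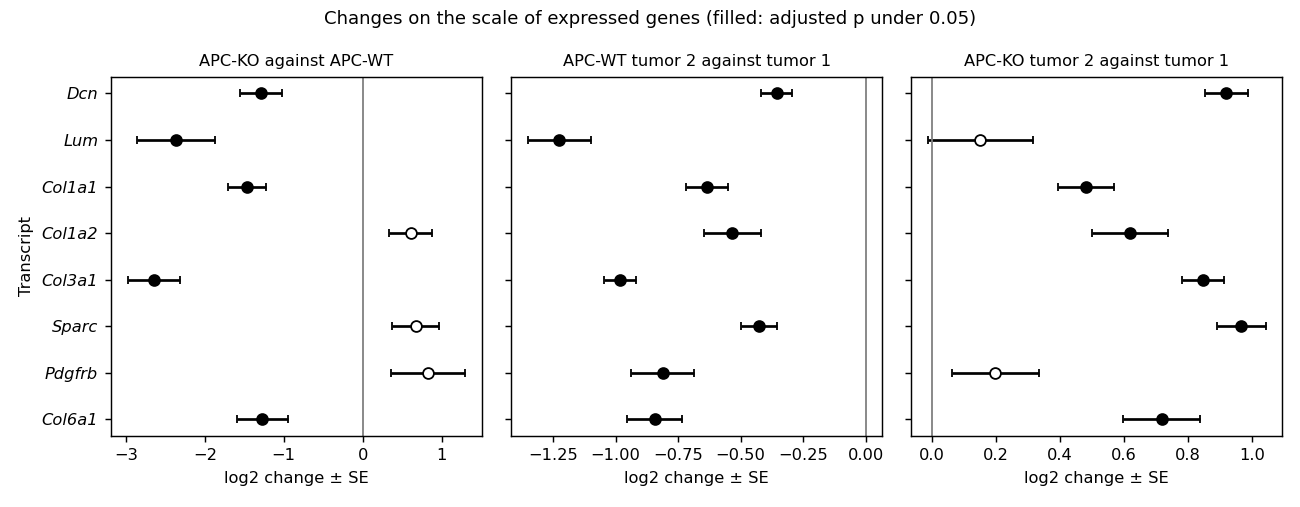
Log2 change with its SE for each transcript in 3 comparisons, on the scale of expressed genes; filled points have an edgeR adjusted p under 0.05. The 5 that fell in APC-KO lie between -1.27 and -2.64, all 8 lie below 0 in APC-WT tumor 2 against tumor 1, and 6 of 8 are filled and above 0 in APC-KO tumor 2 against tumor 1.

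The tumors of 1 genotype also differed from each other. All 8 genes fell from APC-WT tumor 1 to APC-WT tumor 2, and no library of tumor 2 reached the range of tumor 1. The share of all genes with such a gap between libraries was not counted. The changes were -1.23 ± 0.13 for Lum, -0.98 ± 0.064 for Col3a1, -0.84 ± 0.11 for Col6a1, -0.81 ± 0.13 for Pdgfrb, -0.64 ± 0.084 for Col1a1, -0.53 ± 0.12 for Col1a2, -0.43 ± 0.072 for Sparc and -0.36 ± 0.062 for Dcn. The edgeR adjusted p was at most 0.00014, which measures the spread of 6 libraries against 6 and not of tumors. Of 48671 genes tested 4.24% were lower and 79.2% higher in tumor 2, and the median log2 change was 1.96 over all genes against -0.72 over the 8. Carcinoma markers moved the other way, as did most genes: 10 of 10 epithelial genes rose, with a median of 2.02 against 1.96 over all genes. Their summed level went from between 205.3 and 227.0 to between 696.5 and 747.0 scaled CPM in the libraries. Of 12 macrophage genes 8 fell and 0 rose. The part of these shifts in the stromal change was not tested.

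From APC-KO tumor 1 to APC-KO tumor 2, 6 of the 8 genes rose and 0 fell. Sparc rose by 0.97 ± 0.075, Dcn by 0.92 ± 0.067, Col3a1 by 0.85 ± 0.066, Col6a1 by 0.72 ± 0.12, Col1a2 by 0.62 ± 0.12 and Col1a1 by 0.48 ± 0.088 on the log2 scale (edgeR adjusted p of at most 0.0017). Lum, at 0.15 ± 0.16, and Pdgfrb, at 0.20 ± 0.14, did not pass (edgeR adjusted p = 1.00 and 0.95). The libraries of the tumors did not overlap for Dcn, Col3a1 and Sparc, and the share of all genes without overlap was not counted. Here the tumors had near-equal background, and 1.1% of genes were higher and 1.19% lower in tumor 2, with a median change of 0.0085 over all genes and 0.67 over the 8. Above background Col1a2 was 2.92, Dcn 2.59, Col3a1 2.42, Col6a1 2.36, Sparc 2.204 and Col1a1 1.63 times as high in tumor 2 as in tumor 1. The ratio of Col1a2 rests on 18.24 ± 15.97 scaled CPM above background in tumor 1. Against near-silent genes of the same GC content, Col1a2 stood at 0.847 and Col6a1 at 1.14 times background in tumor 1. By that measure the level of Col1a2 in tumor 1 could not be told from background, while by its longest transcript it stood at 3.00 times. The ratio of Col1a2 thus depends on the background used and does not rank it above the others. Epithelial markers rose for 3 of 10 genes (Epcam, Krt8 and Krt19), from between 323.5 and 398.7 to between 401.9 and 463.3 scaled CPM in sum. Of 12 macrophage genes 5 rose (C1qa, C1qb, C1qc, Csf1r and Mrc1) and 2 fell (Lyz2 and Fcgr1). Their part in the stromal change was not tested.

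The other genes of the matrix and of stromal cells were read from 11 lists with 128 genes. Among 22 other fibroblast markers, 16 stood at 3 times background or more in APC-WT tumor 1, and 5 in APC-KO tumor 2 (Fn1, Gsn, Loxl1, Clec3b and Tcf21). Col14a1, a fibril-associated collagen, was at 266 times background, Mmp2, a gelatinase, at 82.98 and Pdgfra, the fibroblast PDGF receptor, at 31.6 times in APC-WT tumor 1. Several other fibroblast genes were within 3 times of background in the same tumor: Postn (periostin) stood at 1.22, Dpt (dermatopontin) at 1.18, Fap (a surface protease) at 1.54 and Fbln1 (fibulin 1) at 2.97 times. Fn1 and Gsn, the fibronectin and gelsolin genes that macrophages also express, were at 1364 and 3227 times. Of these, Mmp2, Pdgfra, Postn, Dpt, Fap and Fbln1 were picked after their values were seen, as were the genes of the other lists that are named only because they passed the test or the background threshold.

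**Figure D4:**
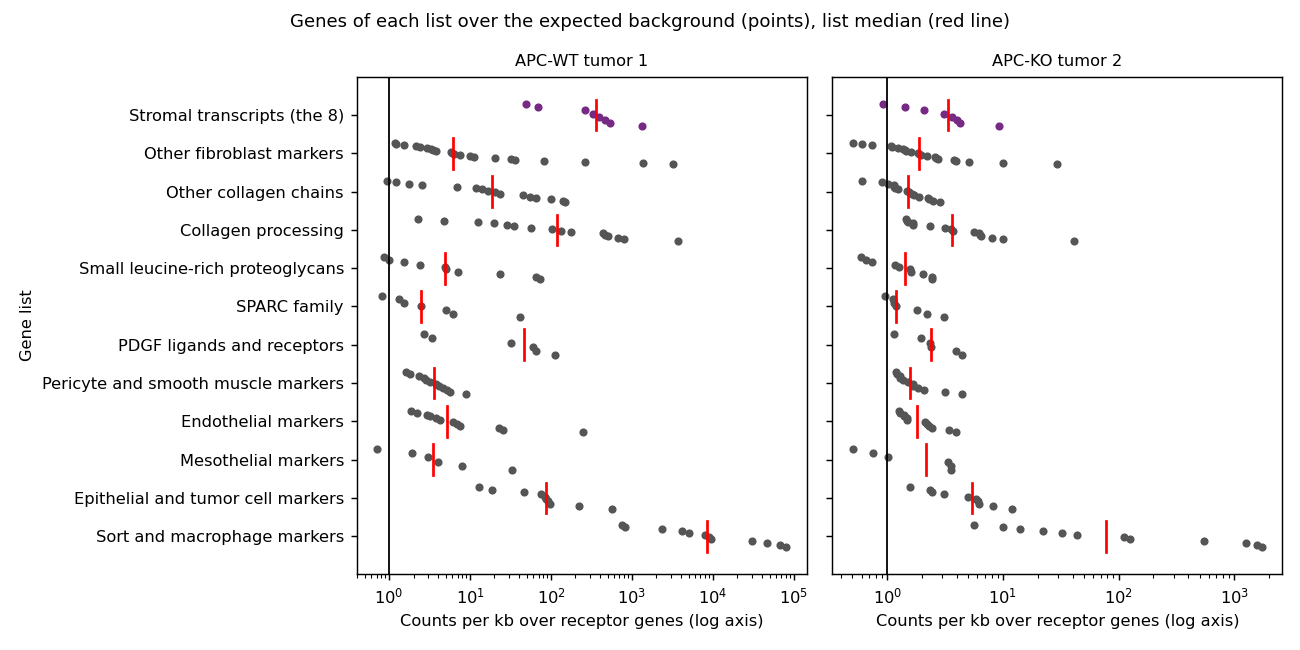
Counts per kilobase over receptor genes (log axis) for every gene of each list in APC-WT tumor 1 and APC-KO tumor 2; points are genes, red lines are list medians and the black line is the background. The 8 stromal transcripts have a median of 363 times in APC-WT tumor 1 and 3.34 times in APC-KO tumor 2, and pericyte markers have 3.54 and 1.58 times.

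In the genotype comparison 2 of the 22 other fibroblast markers fell, Fn1 by 1.38 and Gsn by 0.98 on the log2 scale, and 16 rose. The list's median was 2.65 against 3.56 over all genes, of which 55.4% rose. Between APC-WT tumors Col14a1, Mmp2 and Pdgfra fell by 1.05, 0.43 and 0.56, and 16 of 22 rose, with a median of 1.17 against 1.96 over all genes. Between APC-KO tumors Col14a1 rose by 0.39 and Gsn fell by 0.48, with a list median of 0.020.

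Among 16 other collagen chains, Col4a1 and Col4a2, the network chains of basement membranes, stood at 141 and 99.0 times background in APC-WT tumor 1 and at 2.87 and 1.89 times in APC-KO tumor 2. Col6a2, the partner of Col6a1 in type VI collagen, stood at 150.1 times in APC-WT tumor 1 and 1.05 times in APC-KO tumor 1. In APC-WT tumor 2 against tumor 1, 7 of the 16 fell, Col6a2 by 0.89, and 6 rose, beside 4.24% of all genes lower and 79.2% higher. Between APC-KO tumors Col6a2 rose by 0.66 and Col5a1 by 0.54, and no other chain passed. In APC-KO against APC-WT 11 rose and 0 fell, beside 55.4% of all genes higher, with a median of 2.01 against 3.56; 0 of the 16 reached 3 times background in either APC-KO tumor.

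Collagen processing genes, which fold, hydroxylate and trim the chains, were mostly well above background: 15 of 16 stood at 3 times or more in APC-WT tumor 1 and 9 in APC-KO tumor 1. P4hb, P4ha1 and Plod1, the enzymes that hydroxylate collagen prolines and lysines in many cell types, were at 817.2 ± 32.2, 252.7 ± 8.57 and 351.7 ± 7.44 scaled CPM in APC-WT tumor 1. In APC-KO against APC-WT 5 fell, Plod1 by 0.92, P4ha1 by 0.72, P4hb by 0.70, Plod3 by 0.55 and Colgalt1 by 0.48, and 7 rose, beside 2.48% of all genes lower and 55.4% higher. Serpinh1, the collagen chaperone HSP47, and Pcolce, an enhancer of procollagen trimming, fell by 0.29 and 0.24 between APC-WT tumors and rose by 0.88 and 0.74 between APC-KO tumors. P4ha1 and P4hb fell between APC-KO tumors, by 0.46 and 0.33. Over the whole list 7 of 16 rose and 3 fell between APC-WT tumors, where 79.2% and 4.24% of all genes did, and 2 rose and 2 fell between APC-KO tumors.

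Of the families of Dcn, Sparc and Pdgfrb, part stood above background in APC-WT tumor 1 and few genes did in APC-KO tumors. Of 10 further small leucine-rich proteoglycans 6 reached 3 times background in APC-WT tumor 1 and 0 in either APC-KO tumor. Bgn (biglycan) and Aspn (asporin) stood at 73.1 and 65.7 times in APC-WT tumor 1 and fell by 0.58 and 1.16 in APC-WT tumor 2, while 7 of the 10 rose there, beside 79.2% of all genes. Among 7 genes of the SPARC family, Fstl1 stood at 41.3 times in APC-WT tumor 1, and 3 of 7 reached 3 times there (Fstl1, Smoc1 and Sparcl1); all 7 rose in APC-KO with a median of 3.51, close to the median of all genes. Of 6 PDGF ligands and receptors 5 reached 3 times background in APC-WT tumor 1 and 2 in each APC-KO tumor. Pdgfb stood at 110.7 and Pdgfa at 60.7 times background in APC-WT tumor 1, and 4 of the 6 rose (Pdgfa, Pdgfd, Pdgfra and Pdgfrl) and 0 fell in APC-KO, beside 55.4% of all genes higher, with a median of 1.75 against 3.56.

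Markers of cells that form or surround vessels, and of the mesothelium that lines the peritoneal cavity, were mostly low. For 12 pericyte and smooth muscle genes the summed level was 15.2 scaled CPM in APC-WT tumor 1 against 4.46 expected from background, and 419.4 against 228.6 in APC-KO tumor 2, with 0 of 12 at 10 times background in any tumor. Of 12 endothelial genes, 3 reached 10 times background in APC-WT tumor 1, Pecam1, which macrophages also carry, at 244.6, Plvap at 25.4 and Kdr at 22.5 times. Of 6 mesothelial genes Msln (mesothelin) reached 32.7 times in APC-WT tumor 1 and rose by 0.94 ± 0.17 from APC-KO tumor 1 to tumor 2 (edgeR adjusted p = 0.00080). All 12 pericyte, 11 of 12 endothelial and 4 of 6 mesothelial genes rose in APC-KO, beside 55.4% of all genes. Their median log2 changes of 3.73, 3.58 and 3.08 were close to or below the 3.56 over all genes. The epithelial markers stood at a median of 85.8 and 44.9 times in APC-WT tumors 1 and 2 and 4.54 and 5.39 times in APC-KO tumors 1 and 2, with 10, 10, 6 and 7 of 10 at 3 times or more. No list had a gene without a count in any tumor.

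Only Sparc met the rule for a comparison of patterns, being at 3 times background or more in all tumors. Over the 24 libraries, the expressed genes whose scaled CPM was most like it were Ier2, an immediate early gene, with a Pearson r of 0.954, Hmgb1, a chromatin protein, with 0.903, and Mcm7, a subunit of the replicative helicase, with 0.902. The libraries come from 4 tumors and share their depth and scaling, so these values describe 4 levels and the scatter around them. Ier2 had 1978 ± 98.7, 1414 ± 30.6, 1579 ± 29.5 and 2913 ± 59.1 scaled CPM, again with the APC-WT tumors first, and like Sparc it was highest in APC-KO tumor 2.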

How the data were processed

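The authors deposited raw counts, whole numbers per Ensembl ID (55487 IDs, 24 libraries of sorted macrophage RNA, ultra low input protocol per the labels). The submitters' processing notes name bcl2fastq 2.20.0, HISAT2, StringTie and the build mm9, without roles; settings, strand and annotation are not given in the sources used here. Names, exon lengths and positions came from GENCODE M21 (GRCm38) by gene ID, of which 55227 matched.

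A gene counted as expressed at a mean CPM of 10 or more over the tumors and 10 times its expected background, if it did not resemble the satellite repeat Gm10800 (12 loci with at least 0.1 of their 15-base words shared). The TMM-scaled total of these 3941 genes was the library size. The background was the count per kilobase of 1974 receptor genes (1407 Olfr, the others Vmn). Genotypes were compared on tumor sums, 2 against 2, and tumors within a genotype on 6 libraries each, by edgeR 4.0.16 (quasi-likelihood test, Benjamini-Hochberg adjustment, threshold 0.05, R 4.3.3). Alternatives used DESeq2 1.42.0, limma 3.58.1, other scalings, filters and backgrounds, and left-out tumors or libraries. SE is the log2 change over the root of its F statistic. In simulated counts (54201 genes) the genotype test found 9% of 1 log2 changes and 69% of 2 log2 changes, with 5 false calls. The test between APC-KO tumors (48671 genes) found 100% of both, with 10 false calls. Apart from the changes put in, each simulated gene had the same mean level in all tumors, without a background that differs by genotype. The false calls therefore give no error rate for these data.

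The 8 genes, the lists and the background were chosen with earlier results of these data known. Named genes were the 8, the 3 highest per kilobase of each other list, and the 3 expressed genes most correlated with a gene above background in all tumors. Same-numbered libraries of different tumors correlated at -0.469 to 0.719, with 9 of 36 above 0.1, and were not treated as pairs.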

Additional observations from a re-analysis of the deposited data

Results flagged for a closer look

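In 2 of 32 groups of 6 libraries (8 genes in 4 tumors), 1 library lay far from the other 5 by the gap to its nearest neighbour over the range of the group; chance marks about 1 in 20 groups this way. Col1a2 reached 73.66 scaled CPM in replicate 6 of APC-WT tumor 1, where the others ran from 61.2 to 65.7. Col3a1 reached 170.9 scaled CPM in replicate 1 of APC-KO tumor 2, where the others ran from 150.6 to 155.7. Without either library 5 of the 8 genes still passed as lower in APC-KO, 8 as lower in APC-WT tumor 2 and 6 as higher in APC-KO tumor 2 (edgeR); leaving these libraries out was chosen after their values were seen.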

How the results depend on the processing

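The count of 5 genes called in APC-KO against APC-WT was 0 with TMM over all genes, 0 with limma-voom and 2 (of 5 tested) with a length offset, and ran from 5 to 8 when a tumor was left out, where the lone tumor of a genotype is assumed to vary like the others; without APC-WT tumor 1 it was 8, with Col1a2, Sparc and Pdgfrb higher, in a fit that called 50125 of 54201 genes higher. With TMM over all genes Col1a2 was at -3.55, Sparc at -3.46 and Pdgfrb at -3.41, below 0 instead of above; the median expressed gene was then at -4.01. The counts within genotypes kept to 8 and 6 under every alternative run. For genes above expected background, APC-KO tumor 1 had 4 at 2 times, 0 at 10 times and 3 with the longest transcript's length, against 1; APC-KO tumor 2 had 0 at 10 times, 3 with near-silent coding genes and 2 with those of the same GC content, against 5. The longest-transcript and near-silent backgrounds were added after the data were seen. The cause of these differences was not tested.

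With library number as a replicate block the tumor comparisons again called 8 and 6 genes. With tumor number as a replicate block the genotype test called 5 of the 8, and 17201 genes higher and 1135 lower over all, against 30041 and 1346. Tumor numbers across genotypes correlated at -0.41; with the numbers crossed, 7 of the 8 and 17902 higher and 1391 lower were called. Depth limits the APC-KO libraries most: 3 counts in the shallowest library came to 0.988 scaled CPM in APC-KO tumor 1 and 0.0538 in APC-WT tumor 1, and 2 tumors per genotype limit the genotype test.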
